A study of Homo sapiens with 12 samples.

Results

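The BCL2 family holds the proteins that decide whether the outer mitochondrial membrane is opened in apoptosis. Prosurvival members such as MCL1 and BCL-XL bind and restrain the pore-forming effectors, and BH3-only members release that restraint or activate the effectors directly. Several of these genes are regulated at the transcript level by stress, and the MCL1 transcript and protein are known to turn over quickly.

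The 10 genes BCL2L1, BCL2L11, MCL1, PMAIP1, BAK1, BID, BAD, BIK, BOK and BCL2L12 were taken by symbol from gene tables of 58083 genes, and all 10 were found once in every table. They are 2 prosurvival genes (MCL1, and BCL2L1, which encodes BCL-XL), 2 genes of pore-forming effectors (BAK1 and BOK), 5 BH3-only genes (BCL2L11, which encodes BIM, BID, PMAIP1, which encodes NOXA, BAD and BIK) and BCL2L12, an atypical relative.

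The series used HEK 293T, an established line of human embryonic kidney origin that expresses the large T antigen of SV40. Poly(A) RNA was sequenced from cells given PDP, a small molecule named only by its code, at 1 µM for 3 h, 24 h or 72 h, and from cells given DMSO for 3 h, with 2 samples in each of these 4 groups. A pull-down from annealed genomic DNA and its input, with 2 samples each, gave a list of captured regions, in a study of G-quadruplexes, the four-stranded structures of guanine-rich DNA. No label describes a DMSO group at 24 h or 72 h.

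The tables held 1 pooled value per gene and condition, in FPKM (fragments scaled by transcript length and by library size), so the spread between samples could not be seen and the depth per library is unknown. The control values of the 24 h and 72 h tables were those of the 3 h table times 1.04 (SD 0.000842 on the log2 scale, 13455 genes) and times 0.968 (SD 0.000854, 13368 genes). Changes at 24 h and 72 h therefore include any change with time in culture, which cannot be told apart from one with PDP, and the 3 comparisons share their control. A gene is called where the authors' deposited table gives a q-value under 0.05, and fold changes are PDP over control. Of the markers of the line, VIM, KRT8, KRT18 and NEFM had between 17.6 and 258.6 FPKM in the control, while PTPRC, CD3E, PECAM1 and ALB were at most 0.0869 FPKM. In a bulk culture a change of transcript per cell and a change in the mix of cell states cannot be told apart.

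In the control, transcripts of opposing members stood side by side at the top. MCL1 had 97.4 FPKM and PMAIP1, whose protein NOXA binds MCL1, had 85.3 FPKM, above 93.9% and 92.7% of all tested genes. BCL2L12 followed with 60.2 FPKM. BAK1 (22.3 FPKM), BAD (20.5 FPKM), BID (19.6 FPKM) and BCL2L11 (18.6 FPKM) lay within a narrow range, and the order of these 4 rests on differences that have no replicate error. BCL2L1 had 12.5 FPKM. BIK, at 1.24 FPKM, and BOK, at 0.234 FPKM, were far below the others, and BOK was not tested by the authors at any time. In the control of the 3 h table MCL1 made up 88.7% of the summed FPKM of the listed prosurvival genes. PMAIP1 made up 58.7% of that of the listed BH3-only genes.

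**Figure D1:**
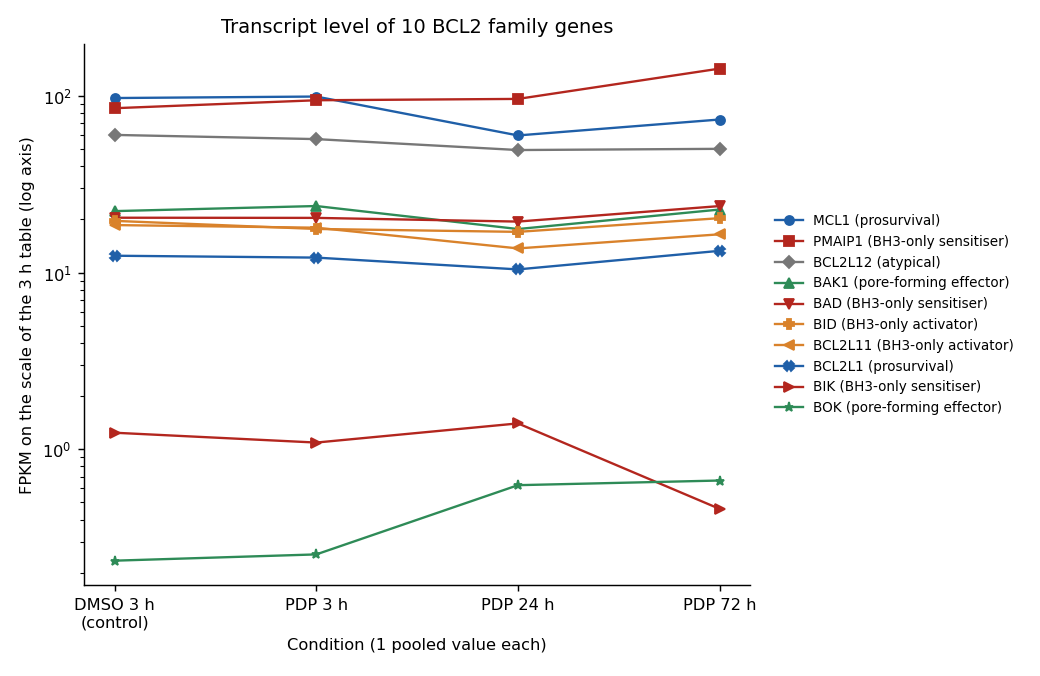
FPKM of the 10 genes in the DMSO control and with PDP at 3 h, 24 h and 72 h, on a log axis, with 1 pooled value per point and the 24 h and 72 h values divided by the factor between control columns. MCL1 was at 59.8 FPKM at 24 h and PMAIP1 at 143 FPKM at 72 h on this scale, while BCL2L12 stayed between 49.5 and 60.2 FPKM.

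At 3 h no member was called. Of 9 members tested, 0 were called higher and 0 lower, and the authors' deposited table called 0.115% of all 14751 tested genes, 0.108% higher and 0.00678% lower. No member had an unadjusted p under 0.05, and the lowest in the authors' deposited table was 0.298, of PMAIP1, which had 94.6 FPKM with PDP and 85.3 FPKM in the control. Log2 fold changes lay between -0.19 (BIK) and 0.15 (PMAIP1), with standard errors of 0.20 to 0.79 as implied by the authors' statistic. Changes of this size were thus not detectable at 3 h.

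At 24 h MCL1 and BCL2L11 fell. The 2 genes stand on opposite sides of the family, since MCL1 protects cells and BIM is a potent activator of the effectors. The authors' deposited table called 2 of the 9 tested members (22.2%), both lower, against 17.5% of all 15385 tested genes called in either direction, 9.21% called higher and 8.29% called lower. At 72 h MCL1 was again lower and PMAIP1 rose, so that 1 member was called higher and 1 lower. The share of members called, 22.2%, was then below the 31.8% of all 15423 tested genes, of which 19.0% were called higher and 12.8% lower. With 9 members, 1 gene makes up a large part of either share, so neither is a result about the family as a whole. At a q of 0.01 the calls of BCL2L11 at 24 h and MCL1 at 72 h ended. The median log2 fold change of members with a geometric mean FPKM of at least 1 was -0.04 at 3 h (9 members), -0.26 at 24 h (9 members) and 0.04 at 72 h (8 members). Over all such genes it was -0.0036, -0.03 and 0.11, so relative to all genes the members' median was -0.23 at 24 h and -0.07 at 72 h. With conditions scaled to equal FPKM sums the members' own median was -0.088 at 24 h and -0.064 at 72 h.

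**Figure D2:**
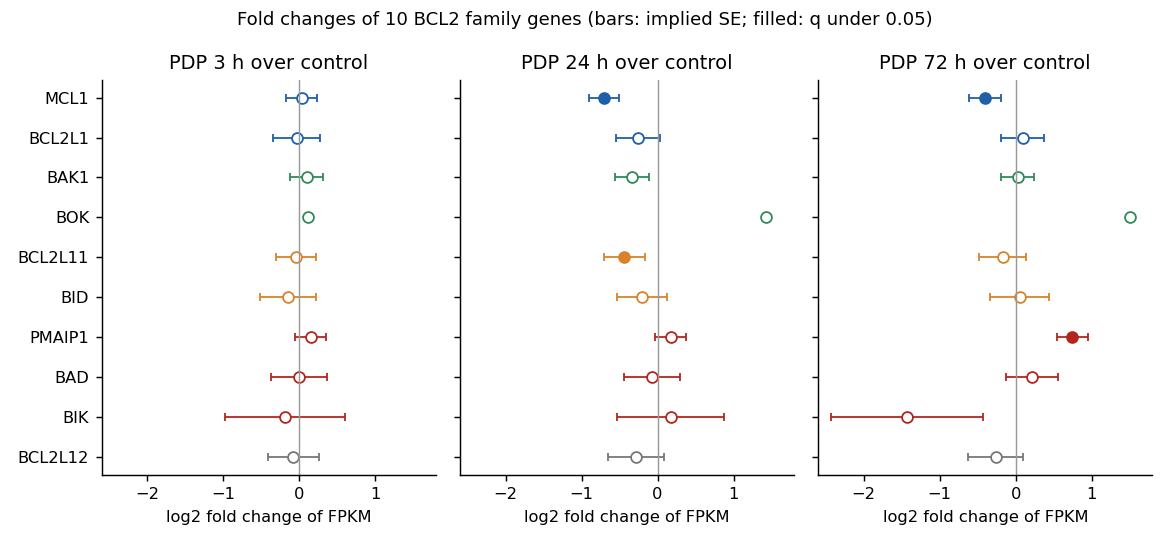
Log2 fold change of FPKM, PDP over control, for each gene at 3 h, 24 h and 72 h, with bars of 1 implied standard error and filled points for q under 0.05 in the authors' deposited tables. MCL1 is filled at 24 h (-0.70) and 72 h (-0.40), BCL2L11 at 24 h (-0.44) and PMAIP1 at 72 h (0.75), while BOK has no bar because it was not tested.

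Among the prosurvival genes, MCL1 (ENSG00000143384.12) changed more. It measured 99.3 FPKM with PDP and 97.4 FPKM in the control at 3 h, 62.1 FPKM with PDP and 101 FPKM in the control at 24 h, and 71.3 FPKM with PDP and 94.3 FPKM in the control at 72 h. The log2 fold change was -0.70 at 24 h (SE 0.20, q = 0.000908 in the authors' deposited table), which is 0.614 times the control, and -0.40 at 72 h (SE 0.21, q = 0.0212 in the authors' deposited table). On a common scale MCL1 had 73.6 FPKM with PDP at 72 h and 59.8 FPKM with PDP at 24 h, a difference that was not tested. BCL2L1, the other prosurvival gene, was not called at any time. Its FPKM was 12.2 with PDP and 12.5 in the control at 3 h, 10.8 with PDP and 12.9 in the control at 24 h, and 12.9 with PDP and 12.1 in the control at 72 h. FPKM of a gene sums over its transcripts, so the long and short splice forms of BCL2L1 and MCL1, which are known to act in opposite directions, were not told apart.

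PMAIP1 (ENSG00000141682.11), a BH3-only gene known as a target of stress-activated ATF factors, was the 1 member called higher. Its levels were 94.6 FPKM with PDP and 85.3 FPKM in the control at 3 h, 100.02 FPKM with PDP and 88.7 FPKM in the control at 24 h, and 138 FPKM with PDP and 82.5 FPKM in the control at 72 h. The log2 fold changes were 0.15 (SE 0.21), 0.17 (SE 0.20) and 0.75 (SE 0.20), and the authors' deposited table gave q = 0.99995, 0.432 and 0.000393. Relative to the median of all expressed genes the 72 h change was 0.64. Other BH3-only sensitisers did not pass the test. BAD, which binds BCL-XL, had 23.1 FPKM with PDP and 19.8 FPKM in the control at 72 h. BIK had 0.445 FPKM with PDP and 1.20 FPKM in the control at 72 h, a log2 fold change of -1.43 whose implied SE was 1.00 (q = 0.137 in the authors' deposited table).

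Of the 2 BH3-only activators, BCL2L11 (ENSG00000153094.21) fell at 24 h. It had 18.0 FPKM with PDP and 18.6 FPKM in the control at 3 h, 14.2 FPKM with PDP and 19.3 FPKM in the control at 24 h, and 16.0 FPKM with PDP and 18.0 FPKM in the control at 72 h. The 24 h log2 fold change of -0.44 was 1.62 times its implied SE of 0.27, with p = 0.0037 and q = 0.0269 in the authors' deposited table. That p is smaller than such a ratio gives under a normal curve, so the implied SE and the p-value do not measure the same spread. The same held for other members, among them MCL1 at 72 h. Its change there was 1.95 times the implied SE, with p = 0.00545 in the authors' deposited table. With conditions scaled to equal FPKM sums the 24 h change of BCL2L11 was -0.27. At 72 h the log2 fold change of BCL2L11 was -0.17 (SE 0.31), and it was not called. BID, which caspase-8 cleaves to link death receptors to mitochondria, was not called at any time and had 17.7 FPKM with PDP and 20.4 FPKM in the control at 24 h.

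The effector genes were not called. BAK1, which encodes a pore-forming protein held in check by MCL1 and BCL-XL, had 23.8 FPKM with PDP and 22.3 FPKM in the control at 3 h. At 24 h it had 18.3 FPKM with PDP and 23.2 FPKM in the control (log2 fold change -0.34, SE 0.22, p = 0.0299 and q = 0.119 in the authors' deposited table). At 72 h the values were 22.1 FPKM with PDP and 21.6 FPKM in the control. BOK had 0.254, 0.650 and 0.644 FPKM with PDP at 3 h, 24 h and 72 h, against 0.234, 0.243 and 0.227 FPKM in the controls of the 3 tables. The later PDP values of BOK were 2.68 and 2.84 times the control, which without a test is a description of a transcript under 1 FPKM. BCL2L12 had 51.4 FPKM with PDP and 62.5 FPKM in the control at 24 h, and 48.6 FPKM with PDP and 58.4 FPKM in the control at 72 h, with no call.

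Because FPKM is per length, levels can be summed across genes by role. The 2 prosurvival genes summed to 112, 73.0 and 84.2 FPKM with PDP at 3 h, 24 h and 72 h, against 110, 114 and 106 FPKM in the controls. The 7 effector and BH3-only genes summed to 176, 173 and 220 FPKM with PDP, against 168, 174 and 162 FPKM in the controls. The ratio of proapoptotic to prosurvival FPKM over the listed genes was thus 1.58, 2.37 and 2.62 with PDP and 1.53 in each control. Other family genes are outside these sums, and a ratio with them was not computed. At 72 h the effector gene BAX had 44.7 FPKM with PDP and 49.1 FPKM in the control. The prosurvival gene BCL2L2 had 18.7 and 9.15 FPKM. At 24 h the prosurvival sum was 0.639 times the control and the proapoptotic sum 0.990 times, and at 72 h they were 0.791 and 1.36 times the control. Without MCL1 and PMAIP1 the ratio was 6.68, 6.70 and 6.36 with PDP against 6.62, 6.62 and 6.61 in the controls, so that its change at 72 h, 0.962-fold, ran the other way from the 1.71-fold change with all members. The ratio of PMAIP1 to MCL1 was 0.953, 1.61 and 1.94 with PDP against 0.876, 0.876 and 0.875 in the controls. These ratios carry no replicate error and were not tested.

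**Figure D3:**
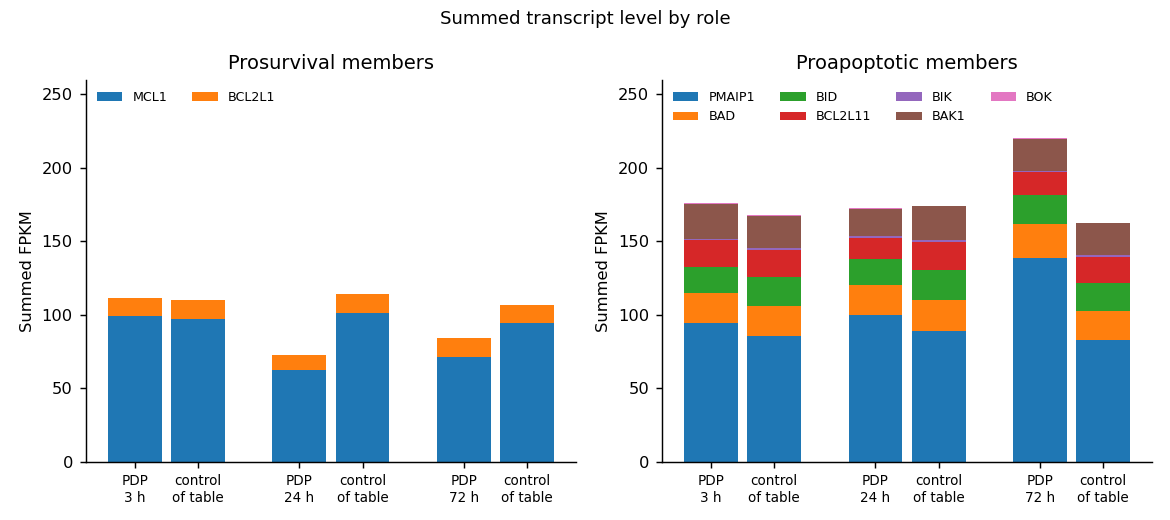
Summed FPKM of the listed prosurvival genes (left) and the listed proapoptotic genes (right), stacked by gene. PDP stands beside the control of the same table at each time. The prosurvival stack is lowest with PDP at 24 h (73.0 FPKM, of which 85.2% was MCL1), and the proapoptotic stack is highest with PDP at 72 h (220 FPKM, of which PMAIP1 gave 138).

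Reference promoters of the called genes are shown because PDP was studied alongside G-quadruplex DNA. The sequences are RefSeq windows of GRCh38.p14, from 250 bases before to 50 after a gene's start, on the strand of the gene. Capitals mark the longest stretch with at least 4 runs of GGG or more G, separated by 1 to 7 bases of any kind; both strands were searched. Matches were found in windows of 5 members (PMAIP1, BCL2L11, BAK1, BAD and BID), while the windows of BCL2L1, BCL2L12 and BOK held none. Among all 35116 windows 25.0% held a match, and 27.9% of 27305 genes had at least 1 such window. MCL1 and BIK had no entry in the table. The PMAIP1 window (chr18:59899746-59900045, plus strand) and the BCL2L11 window (chr2:111120664-111120963, plus strand) are given whole.
PMAIP1: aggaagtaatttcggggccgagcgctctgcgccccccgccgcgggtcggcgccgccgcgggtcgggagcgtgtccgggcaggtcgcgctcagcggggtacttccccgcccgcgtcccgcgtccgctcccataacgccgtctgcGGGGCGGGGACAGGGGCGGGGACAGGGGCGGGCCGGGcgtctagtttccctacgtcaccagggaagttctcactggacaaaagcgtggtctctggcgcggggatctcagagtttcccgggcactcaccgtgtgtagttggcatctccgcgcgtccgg
BCL2L11: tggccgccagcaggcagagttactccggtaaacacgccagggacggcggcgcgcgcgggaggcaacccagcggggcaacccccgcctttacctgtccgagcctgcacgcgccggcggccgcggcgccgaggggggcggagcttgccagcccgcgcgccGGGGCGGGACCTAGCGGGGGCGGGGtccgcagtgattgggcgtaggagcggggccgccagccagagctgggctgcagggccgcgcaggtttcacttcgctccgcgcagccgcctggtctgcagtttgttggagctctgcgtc

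The stretch in PMAIP1 is 37 bases long, and that in BCL2L11 is 25 bases long. Of these genes 1 was called higher and 1 lower, so both directions occurred among promoters with a match. To compare, the stretches of members that were not called are given alone, from BAK1 (chr6:33580227-33580526, minus strand), BAD (chr11:64284655-64284954, minus strand) and the longest of BID (chr22:17774420-17774719, minus strand).
BAK1: GGGAGGTGGGGTGGGGAAAGTGGGCGGG
BAD: GGGGGGGCGGGGCCGGGCCGGG
BID: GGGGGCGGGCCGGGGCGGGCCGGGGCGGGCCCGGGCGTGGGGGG
The motif TGACGT, searched on both strands, is the core of sites bound by ATF and CREB factors. It was present in the PMAIP1 window, where it began 56 bases before the start, and in the BAD windows. The motif was in 7.98% of all windows, and 9.64% of 27305 genes had at least 1 window with it. It was chosen after the values of PMAIP1 were seen. A match of letters is not a bound site.

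The pull-down from annealed genomic DNA, for which the labels give no treatment of cells, placed no peak at the genes that were called. The authors' list held 51446 merged peaks of both samples, each with a score whose unit is not stated. No peak centre lay within 5 kb of the MCL1, PMAIP1 or BCL2L11 locus. Distances from RefSeq starts were taken across patches of GRCh38, which share their chromosome coordinates. The nearest peak to the RefSeq start was 44758 bases upstream for PMAIP1 and 37854 bases upstream for BCL2L11. Peaks lay inside the loci of BAK1, BID and BOK. This was 3 of 10 loci (30.0%, exact 95% binomial interval 6.67% to 65.2%, for counting error only), while 55.1% of the 10935 loci of tested genes held a peak. The interval treats the members' loci as like draws. They were chosen, and their lengths ran from 4359 bases (PMAIP1) to 59538 bases (BCL2L1). Density was 15.6 peaks per Mb in the members' loci and 19.4 per Mb in all those loci. With 5 kb added at each end, 4 of 10 members' loci (40.0%) and 63.9% of all loci held a peak, at 21.4 and 19.9 peaks per Mb. Among the upper part of the list by score, from the median up, the order of the densities within the loci turned, with 12.5 peaks per Mb in the members' loci and 9.29 per Mb in all loci, and with 5 kb added they were 16.6 and 9.68 per Mb. The members' densities there rest on 4 peaks in 3 loci, and on 7 peaks in 4 loci with 5 kb added. The share of loci with such a peak stayed lower among members, at 3 of 10 against 39.3% of all loci. With 5 kb added it was 4 of 10 against 46.2%.

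The highest score at a member belonged to BOK. Its peak (chr2:241545634-241546066, GRCh38.p7 as named in the submitters' processing notes) scored 50.8, rank 132 in the list, and was centred 12895 bases upstream of the RefSeq start of BOK. BAK1 had 3 peaks inside its locus (chr6:33540045-33593338), with scores of 9.29, 12.9 and 11.8. The peak scoring 11.8 was centred 6607 bases upstream of the RefSeq start of BAK1. The one at chr6:33579117-33579519 was centred 958 bases downstream of the start. The BAK1 promoter window, with the stretch shown above, did not overlap the peak at 958 bases. The BID peak (chr22:17771231-17771635) scored 11.3 and was centred 2550 bases downstream of the nearest start, and BIK had 1 peak, 1032 bases beyond the end of its locus. The median score in the list was 11.0.

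**Figure D4:**
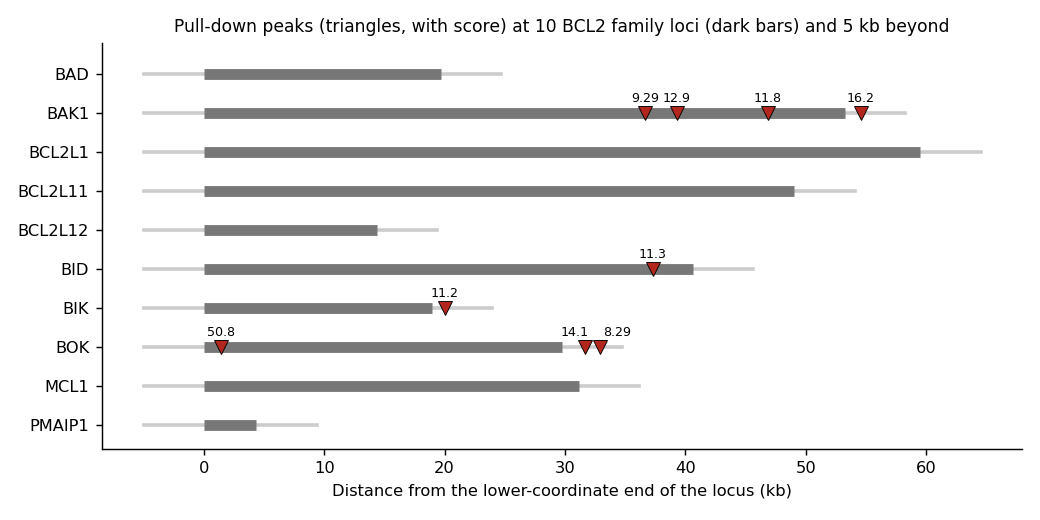
Loci of the 10 genes as dark bars, drawn from the lower-coordinate end in kb, with 5 kb added at each side as thin lines and pull-down peaks as triangles with their scores. BAK1 carries 4 peaks and BOK 3 within these windows, BID and BIK 1 each, and the 6 other loci none.

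Some values could hold reads of a neighbour. BAD overlaps GPR137 and BCL2L12 overlaps IRF3 in the RefSeq annotation. BOK, BCL2L1 and BID overlap noncoding genes there, among them BOK-AS1, BCL2L1-AS1 and MIR3198-1, whose levels were not examined. The library kit keeps strand, but whether counting used it is not given in the sources used here. GPR137 had 16.6 FPKM with PDP and 19.1 FPKM in the control at 24 h, and IRF3 had 42.2 and 37.1 FPKM, with no call at any time. The MCL1 locus of the tables also holds ADAMTSL4, which does not overlap MCL1 in RefSeq and had at most 4.95 FPKM. The BAK1 locus of the tables also holds GGNBP1, which had at most 0.679 FPKM. The copies BAK1P1, BAK1P2 and BCL2L12P1 were at most 0.232 FPKM in every condition.

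The remaining apoptosis genes were described by 7 lists, read against the same shares of all tested genes. At 3 h none of the 66 tested genes was called. At 24 h 8 of 67 were called higher and 10 lower in the authors' deposited table, against 9.21% and 8.29% of all tested genes. At 72 h 19 of 67 were called higher and 11 lower, against 19.0% and 12.8% of all tested genes. These shares cannot be read as tests of the lists.

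Other BCL2 family genes moved upward where they were called, in both roles. Of 9 tested, 3 were called higher at 24 h and 6 at 72 h, with 0 lower, where 9.21% and 19.0% of all tested genes were called higher, and the list had medians on the log2 scale of 0.56 at 24 h and 1.54 at 72 h, against -0.0036 and 0.13 over all tested genes. BNIP3, a mitophagy receptor that hypoxia induces, had 175 FPKM with PDP and 35.1 FPKM in the control at 72 h (log2 fold change 2.32, SE 0.27). BNIP3L, its relative, had 55.4 FPKM with PDP and 16.5 FPKM in the control. BCL2, the founding prosurvival gene, had 5.05 FPKM with PDP and 1.62 FPKM in the control at 72 h (1.64, SE 0.33, q = 0.000393 in the authors' deposited table). BMF, a BH3-only gene, was called at 24 h with 4.84 FPKM with PDP and 1.50 FPKM in the control (1.69, SE 0.73), and at 72 h with 4.06 FPKM with PDP and 1.40 FPKM in the control. The remaining calls at 72 h were BBC3, which encodes the BH3-only protein PUMA (12.1 FPKM with PDP, 4.04 FPKM in the control), and BCL2L2, which encodes the prosurvival BCL-W (18.7 and 9.15 FPKM), both named after their values were seen. BAX, the effector that partners BAK1, was not called and had 44.7 FPKM with PDP and 49.1 FPKM in the control at 72 h; it too was named after its values were seen.

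In the list of apoptosome and caspase genes, 3 of 11 were called lower at 24 h, where 8.29% of all tested genes were. At 72 h 1 was called higher and 2 lower, where 19.0% and 12.8% of all tested genes were. CASP2 had 30.6 FPKM with PDP and 52.2 FPKM in the control at 24 h, and CYCS, cytochrome c, 107 and 150.2 FPKM. DFFA, the inhibitor of the apoptotic nuclease, was the 1 gene called higher, with 127 FPKM with PDP and 79.6 FPKM in the control at 72 h. Calls in the list of inhibitor of apoptosis proteins and their antagonists were lower as well. XIAP, which blocks caspases, had 30.5 FPKM with PDP and 54.8 FPKM in the control at 24 h, and 25.1 and 51.1 FPKM at 72 h. At 3 h XIAP already had 30.0 FPKM with PDP and 52.8 FPKM in the control, a log2 fold change of -0.81 against -0.85 at 24 h, with the same p of 0.0058 in the authors' deposited tables at both times, but its adjusted value did not pass at 3 h. Of 6 genes tested in that list 2 were called lower at 24 h and 2 at 72 h, against 8.29% and 12.8% of all tested genes. Beside XIAP these were BIRC5 (survivin) at 24 h and BIRC2 at 72 h. BIRC5 was not called at 72 h, with 132 FPKM with PDP and 106 FPKM in the control. Among 9 mitochondrial membrane and released factors 0 were called at 24 h and 2 were lower at 72 h, where 12.8% of all tested genes were, ENDOG (5.46 FPKM with PDP, 11.9 FPKM in the control) and VDAC3 (91.4 and 122 FPKM).

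On the death receptor route that leads to BID, calls went both ways. FADD, the adaptor that recruits caspase-8, had 2.25 FPKM with PDP and 15.7 FPKM in the control at 72 h (log2 fold change -2.81, SE 0.30), and RIPK1, a kinase of the receptor complex, had 1.79 and 8.60 FPKM (-2.27, SE 0.26). Both were also called lower at 24 h, by -0.48 and -0.91 on the log2 scale. FAS, a death receptor, had 3.71 FPKM with PDP and 1.54 FPKM in the control at 72 h, and was called higher at 24 h too. In all, 1 of 7 tested genes was called higher and 2 lower at 24 h, against 9.21% and 8.29% of all tested genes, and 3 higher and 2 lower at 72 h, against 19.0% and 12.8%.

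**Figure D5:**
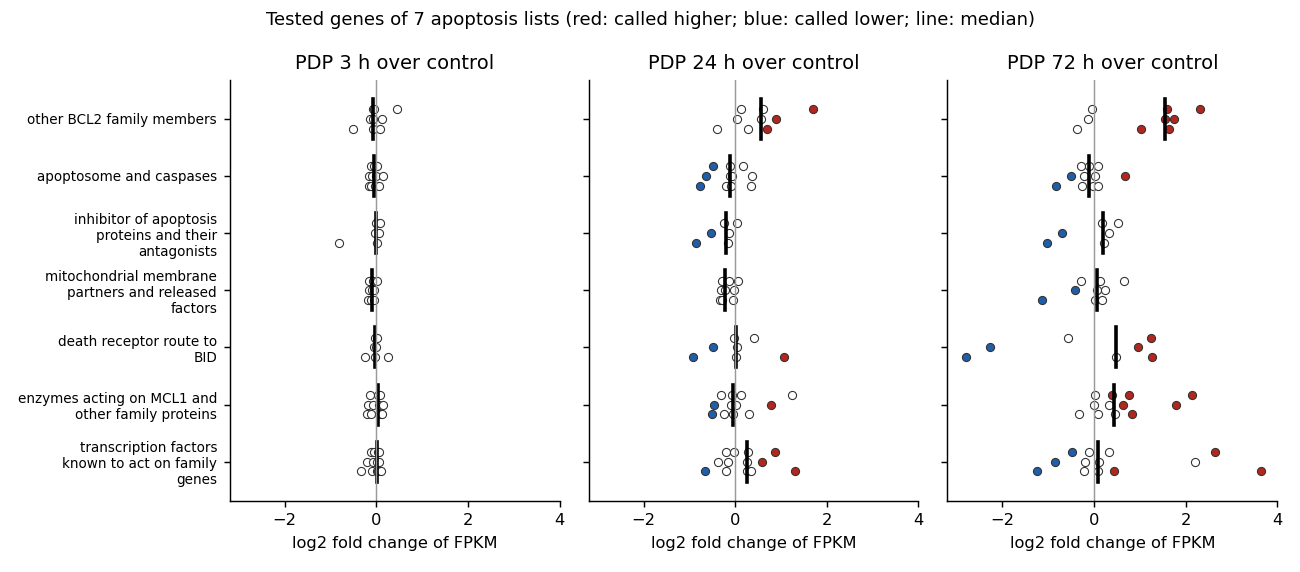
Log2 fold change of FPKM, PDP over control, for every tested gene of 7 apoptosis lists at 3 h, 24 h and 72 h, in red where called higher, in blue where called lower, and with the list median as a black line. The other BCL2 family genes have medians of 0.56 at 24 h and 1.54 at 72 h, and FADD and RIPK1 are the 2 lowest points at 72 h.

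Enzymes that act on MCL1 and related proteins were called higher for 6 of 12 tested genes at 72 h and lower for 0, after 1 higher and 2 lower at 24 h. Over all tested genes 19.0% were called higher at 72 h, and 9.21% higher and 8.29% lower at 24 h. PIM1, a survival kinase, had 23.2 FPKM with PDP and 5.31 FPKM in the control at 72 h (log2 fold change 2.13, SE 0.25), and PIM2 had 26.1 and 14.6 FPKM. TRIM17, a ubiquitin ligase of MCL1, was called at 72 h at a low level, 1.11 FPKM with PDP and 0.323 FPKM in the control. USP9X (95.6 FPKM with PDP, 56.3 FPKM in the control) and PIM3 (114 and 73.7 FPKM) were also called higher at 72 h. HUWE1, FBXW7 and BTRC were not called at any time, and these genes too were named after their values were seen. The list mixes survival kinases with enzymes that mark MCL1 for degradation, so its count has no single meaning for MCL1. GSK3B, a kinase that marks MCL1 for degradation, had 17.5 FPKM with PDP and 25.0 FPKM in the control at 24 h and was called lower there, as was UBE2C, a ubiquitin-conjugating enzyme of mitosis (105 and 145 FPKM). UBE2C was called higher at 72 h, with 179 FPKM with PDP and 136 FPKM in the control.

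Transcription factors known to act on family genes gave 3 higher calls and 1 lower call at 24 h, and 3 in each direction at 72 h, of 13 tested, against 9.21% higher and 8.29% lower at 24 h and 19.0% and 12.8% at 72 h over all tested genes. ATF3, a stress-induced factor, had 182 FPKM with PDP and 14.5 FPKM in the control at 72 h (log2 fold change 3.64, SE 0.23), and 38.8 and 15.6 FPKM at 24 h. JUN, an AP-1 subunit, had 263 FPKM with PDP and 42.1 FPKM in the control at 72 h. E2F1, a factor of the cell cycle, was called lower at both times, with 19.2 FPKM with PDP and 30.2 FPKM in the control at 24 h. Whether the changes of these factors and of PMAIP1, MCL1 or BCL2L11 are related was not tested.

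Likeness of pattern was measured as the Euclidean distance between the 3 log2 fold changes, over 12555 genes tested at all times with at least 1 FPKM in both conditions. For BIK, the member with the widest range over time, the nearest genes were TPGS1, ASF1B and HGSNAT, at distances of 0.0919 to 0.153. For BOK they were ARAP3, JAZF1 and C1QL4, at 0.0985 to 0.104. BIK at 72 h and BOK at every time were under 1 FPKM in at least 1 condition, below the minimum set for the genes they were compared with. PMAIP1 and MCL1 were added after their values were seen. Within a distance of 0.2 there were 160 genes for PMAIP1 and 188 for MCL1, with GRINA and KIF18B the nearest. A distance over 3 points that share a control says little about likeness in general.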

How the data were processed

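Of 12 samples in 6 groups of 2, the 8 RNA samples and the pull-down were used, grouped by the labels. The submitters' processing notes name the build GRCh38.p7, HISAT2 2.0.5, Cufflinks 2.2.1, Bowtie2 2.2.9 and HOMER 4.9.1 among others, with no role or setting. The authors' deposited FPKM are pooled over a condition's samples, since the file headers name conditions only. Scaling within a table was inferred from the constant factor between control columns. Each p-value and q-value is the authors' deposited result for PDP against control. An implied SE was taken as the log2 fold change over the authors' deposited test statistic, a score, and peaks were ranked by the score that the authors deposited with each peak.

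Log2 fold changes were computed from FPKM with no pseudocount. Sample titles label the replicates bio1 and bio2. Whether these came from separate cultures is not stated, so p-values may measure technical spread. The 10 members and 7 lists were chosen with earlier results of these data known. Named genes were all members, up to 3 called genes per list and time by size of change, and the 3 genes nearest to the 2 members of widest range. One list entry is another name of a gene listed beside it and matched no row. Peaks were assigned by centre to the loci of the tables. RefSeq starts of GRCh38.p14 lay within 1000 bases of the table locus for 97.3% of 16200 shared symbols. Promoters, peaks and lists got no test. Some list genes that the rule names are not reported here. The depth per library is unknown. Alternatives are a stricter q, a minimum change, a pseudocount of 1, other scalings and other windows. Only the fold change formula, the adjustment of p-values, the search for runs of G and strand reversal were checked, on simulated inputs with known answers. Scripts ran in Python 3.11.15 (pandas 2.3.3, NumPy 2.4.6, Matplotlib 3.10.9).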

Additional observations from a re-analysis of the deposited data

How the results depend on the processing

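No paired analysis was possible because the tables hold 1 pooled value per condition, and for the same reason no sample could be left out. At a q of 0.01, 1 member was called lower at 24 h (MCL1), and at 72 h 0 lower and PMAIP1 higher. With a log2 change of at least 1, the counts of members were 0 lower at 24 h and 0 higher and 0 lower at 72 h. Adjusting the deposited p over genes with at least 1 FPKM left the same counts. Over all tested genes, a q of 0.01 gave 0 higher and 0 lower calls at 3 h, and 788 higher and 734 lower at 24 h; a log2 change of at least 1 gave 10 and 0 at 3 h, 745 and 164 at 24 h, and 1550 and 810 at 72 h. Scaling to equal FPKM sums adds 0.05 at 3 h, 0.17 at 24 h and -0.10 at 72 h to every log2 fold change. It turned the sign of uncalled members: BAD (0.051 at 3 h, 0.097 at 24 h), BCL2L11 at 3 h (0.0050), BCL2L1 (0.019 at 3 h, -0.012 at 72 h), BID (-0.053) and BAK1 (-0.075) at 72 h. Relative to the median of expressed genes, the sign turned for BAD at 3 h (0.00046) and at 72 h for BID (-0.056), BAK1 (-0.078) and BCL2L1 (-0.015). The called genes kept their sign under each scaling and under a pseudocount of 1. Without MCL1 and PMAIP1 the change in the ratio of proapoptotic to prosurvival FPKM was 1.01-fold at 24 h and 0.962-fold at 72 h; the cause was not tested. Peaks at members' loci numbered 5 in the loci alone and 5 with 1 kb added, against 9 with 5 kb.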
